A study of Drosophila melanogaster with 8 samples.

Results

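The Jun N-terminal kinase (JNK) pathway and its wound or tumour targets were followed across 4 genotypes of whole wandering larvae of Drosophila melanogaster, as 8 genes taken by symbol: egr, hep, bsk, Jra, kay, puc, Mmp1 and Ilp8. Of the 15904 rows in each deposited table, 7 carried a member's symbol alone. Ilp8 had no such row: it stood in a row merged with the non-coding gene CR45756, so that row was kept apart and its value belongs to both genes together. The genotypes were WT (Oregon R+), hsromega66 (w1118; Sp/CyO';hsromega66, a near-null allele of the long non-coding RNA gene hsromega), Hsp90GFP (w1118; Sp/CyO';hsp90GFP, which over-expresses the Hsp90 gene Hsp83) and larvae labelled as the recombinant of both (w1118; Sp/CyO';hsp90GFPhsromega66). All 3 mutant genotypes share the w1118; Sp/CyO' background, which WT lacks, so genotype and background cannot be told apart in any comparison against WT. The labels do not say what drives Hsp90GFP. Each genotype had 2 libraries of 5 pooled larvae, and the authors deposited 1 FPKM (fragments scaled to gene length and library size) per genotype, so no spread between libraries stands beside any level, and the read depth is unknown.

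JNK signalling is a kinase relay. In flies the TNF ligand Eiger, made from egr, binds receptors at the cell surface, the signal passes to the JNK kinase Hemipterous (hep) and on to JNK itself (Basket, bsk), and JNK phosphorylates the AP-1 transcription factor, a dimer of Jun (Jra) and Fos (kay). AP-1 then switches on puc, which encodes a phosphatase that turns JNK off, and in wounded or tumorous imaginal discs it switches on Mmp1, a secreted matrix metalloproteinase, and Ilp8, a relaxin-like hormone with which damaged discs delay pupariation. Much of the relay works by phosphorylation, which RNA levels do not measure.

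The groups were first set against their labels. Hsromega was at 236 FPKM in WT, 0.767 FPKM in hsromega66, 273 FPKM in Hsp90GFP and 77.9 FPKM in those labelled as the recombinant. In that group the level was 33.0% of WT without a call (q = 0.629, authors' deposited table), beside 0.32% in hsromega66, which goes against the label. That group is therefore called the labelled recombinant, by its label only. Hsp83 was at 371 FPKM in WT, 427 FPKM in hsromega66, 1616 FPKM in Hsp90GFP and 968 FPKM in the labelled recombinant, where it was 261% of WT without a call (q = 0.243, authors' deposited table). In that group the tumour suppressor gene l(2)gl, whose loss gives overgrown discs, was at 0.0516 FPKM against 59.6 FPKM in WT (q = 0.00144, authors' deposited table). No own-row gene of the disc, hemocyte (blood cell), trachea and epidermis, or last instar stage lists was listed at 0 in any genotype. The summed level of 11 last instar stage genes (salivary glue, fat body and ecdysone-response genes) was 59485 FPKM in WT, 59493 FPKM in hsromega66, 39322 FPKM in Hsp90GFP and 238 FPKM in the labelled recombinant. Fbp2, on the same list but in a row merged with CG42847, is not in that sum. Its row was at 2779 FPKM in the labelled recombinant against 7040 FPKM in WT, not called (q = 0.611, authors' deposited table). The 14 disc markers summed to 102 to 146 FPKM, with the lowest sum in the labelled recombinant. Against WT, 12 of the 14 were lower there, with Dll and dac called, beside 4.05% of all tested genes called lower. The other 2 were higher: nub at 7.49 against 6.29 FPKM and sd at 32.1 against 29.2 FPKM. The 8 hemocyte markers summed to 267 to 988 FPKM and the 6 trachea and epidermis markers to 330 to 1044 FPKM, both highest there. In whole larvae, fewer cells of a type and less RNA per cell cannot be told apart. Whether the larvae of the labelled recombinant were matched in stage to the other genotypes was not tested. Every value of the labelled recombinant below stands beside these shifts, and their part in it was not tested.

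Of the 8 member rows, 7 lay within a narrow band across the genotypes and the row of Ilp8 did not. The ratio of the highest to the lowest genotype was 1.13 for bsk, 1.20 for hep, 1.31 for Jra, 1.35 for puc, 1.45 for egr, 1.56 for Mmp1 and 1.73 for kay, and 24.7 for the merged row of Ilp8. Over 11657 genes tested in all 6 comparisons and above 0 in every genotype the median of this ratio was 1.896, so all 7 own-row members varied less than the median gene. The share of genes with a smaller ratio was 2.81% for bsk, 43.6% for kay and 93.9% for the row of Ilp8.

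**Figure D1:**
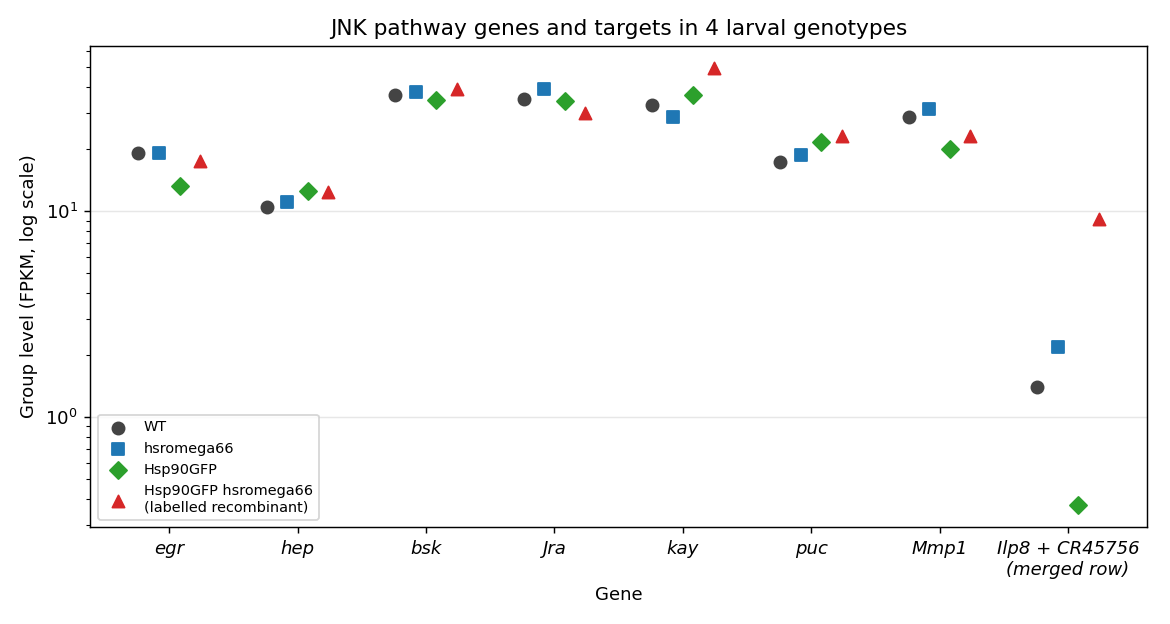
Group level in FPKM on a log axis for each of the 8 member rows (horizontal axis), with 1 point per genotype, the authors' value over both libraries, and no error bar because no value per library was used. The 4 points of each own-row gene lie close together between 10.5 and 49.7 FPKM, while the row of Ilp8 runs from 0.372 FPKM in Hsp90GFP to 9.18 FPKM in the labelled recombinant.

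**Figure D2:**
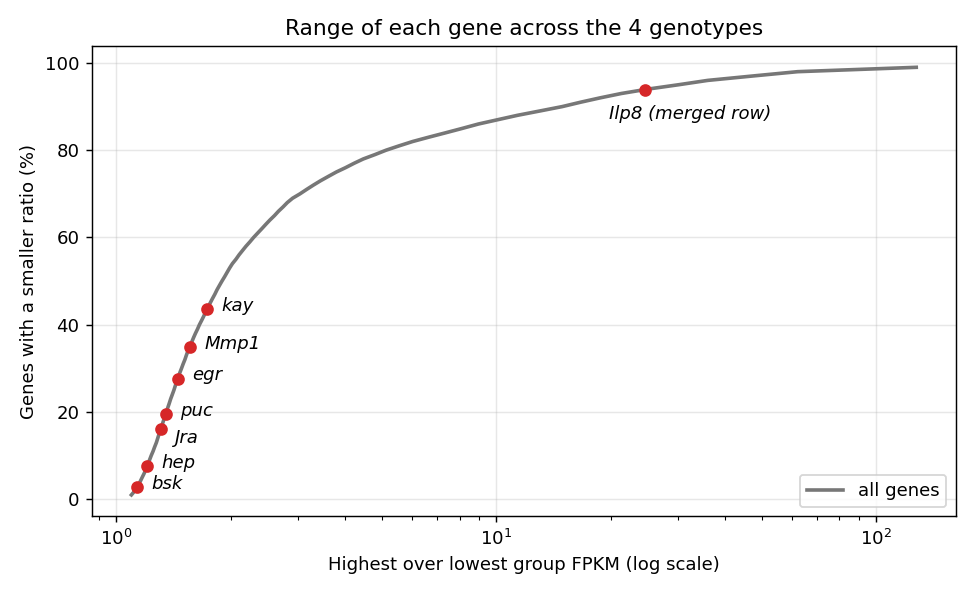
Share of genes (vertical axis, %) whose highest-to-lowest ratio of group FPKM is smaller than the value on the horizontal log axis, for 11657 genes (line) and the 8 member rows (points). bsk, hep, Jra, puc, egr, Mmp1 and kay sit below the median ratio of 1.896, and the row of Ilp8 sits at 93.9%.

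No member was called in any of the 6 comparisons. Calls rest on Cuffdiff: a gene with test status OK and a q under 0.05 in the authors' deposited table is called. None of the 8 rows was called in hsromega66 against WT, where 1.24% of 12523 tested genes were, and none in Hsp90GFP against WT, where 1.09% of 12621 were. None was called in Hsp90GFP against hsromega66, where 0.997% of 12534 genes were called. In the labelled recombinant none was called against WT (8.66% of 12656 genes called), against hsromega66 (7.3% of 12488) or against Hsp90GFP (6.66% of 12605). With such shares a count of 0 among 8 rows is near the background. None of the 48 member ratios had an unadjusted p under 0.05 in the authors' deposited tables, and a z test on the standard errors implied by Cuffdiff's statistic called none either. The q of the 7 own-row members ran from 0.653 to 0.998 over the 42 ratios in the authors' deposited tables, so no neighbours in the order of any member's 4 levels differed beyond the authors' error.

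The error behind these ratios was wide. The standard error of a member's log2 ratio, obtained by dividing the ratio by Cuffdiff's statistic, was 0.77 to 1.10 for the own-row members, and all 42 of their 95% intervals spanned a ratio of 1. Errors implied by the deposited p were smaller, with a median of 0.61 against 0.85. At the members' levels, 10.5 to 49.7 FPKM, the smallest change the authors' test called was 2.93-fold to 3.20-fold by comparison, and of the genes there that differed at least 4-fold, 50.7% to 63.9% were called. A change of an own-row member by less than about that size was not detectable here, and a p that misses the threshold does not show that the genotypes were alike. The row of Ilp8, at 0.372 to 9.18 FPKM, lies below those levels, and even its ratio of 24.7 was not called.

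egr, the ligand (FBgn0033483, dm6 2R 10078366 to 10084210, plus strand, 8 distinct exons in 2 annotated transcripts), was at 19.2 FPKM in WT, 19.1 FPKM in hsromega66, 13.2 FPKM in Hsp90GFP and 17.4 FPKM in the labelled recombinant. Hsp90GFP was the low genotype, and WT and hsromega66 were nearly equal. The ratio of Hsp90GFP to WT was 0.689 (95% interval 0.237 to 2.00, q = 0.781, authors' deposited table), and that of the labelled recombinant to WT was 0.909 (interval 0.308 to 2.68, q = 0.993, authors' deposited table).

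The kinases varied least. hep, the JNK kinase (FBgn0010303, X 13079205 to 13090434, minus strand, 15 distinct exons in 7 transcripts), was at 10.5 FPKM in WT, 11.1 FPKM in hsromega66, 12.6 FPKM in Hsp90GFP and 12.4 FPKM in the labelled recombinant. WT was lowest, and the genotypes stood within a ratio of 1.20. bsk, the only JNK gene of the fly (FBgn0000229, 2L 10247502 to 10250501, minus strand, 9 distinct exons in 3 transcripts), was at 36.6 FPKM in WT, 38.1 FPKM in hsromega66, 34.7 FPKM in Hsp90GFP and 39.4 FPKM in the labelled recombinant. On the FPKM scale, which is per length, bsk was above hep in every genotype. The ratio of the labelled recombinant to WT was 1.08 for bsk (95% interval 0.373 to 3.10, q = 0.994, authors' deposited table) and 1.19 for hep (interval 0.354 to 3.98, q = 0.979, authors' deposited table).

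Of the AP-1 partners, the Fos gene was highest and the Jun gene lowest in the labelled recombinant, neither with a call. Jra, fly Jun (FBgn0001291, 2R 10096480 to 10098556, plus strand, 4 distinct exons in 3 transcripts), was at 35.2 FPKM in WT, 39.3 FPKM in hsromega66, 34.3 FPKM in Hsp90GFP and 30.0 FPKM in the labelled recombinant. kay, fly Fos (FBgn0001297, 3R 29765995 to 29794113, plus strand, 7 distinct exons in 5 transcripts), was at 32.8 FPKM in WT, 28.7 FPKM in hsromega66, 36.9 FPKM in Hsp90GFP and 49.7 FPKM in the labelled recombinant. kay thus had its highest level where Jra had its lowest. The ratio of kay in the labelled recombinant to hsromega66 was 1.73 (95% interval 0.510 to 5.89, q = 0.653, authors' deposited table), the smallest q of any own-row member. For Jra the same ratio was 0.764 (interval 0.186 to 3.13, q = 0.944, authors' deposited table).

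puc, the JNK phosphatase and the usual reporter of JNK activity (FBgn0243512, 3R 8105332 to 8122294, plus strand, 5 distinct exons in 2 transcripts), was at 17.3 FPKM in WT, 18.8 FPKM in hsromega66, 21.7 FPKM in Hsp90GFP and 23.3 FPKM in the labelled recombinant. The 3 mutant genotypes all stood above WT, by ratios of 1.09, 1.25 and 1.35. None of these was called (q = 0.994, 0.937 and 0.880, authors' deposited tables), and the interval of the largest was 0.445 to 4.08. When each genotype was rescaled to its summed FPKM, puc in hsromega66 came out below WT (log2 ratio -0.03) and in the labelled recombinant below Hsp90GFP (-0.33).

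Mmp1, the secreted metalloproteinase (FBgn0035049, 2R 24671294 to 24688184, minus strand, 12 distinct exons in 10 transcripts), was at 28.8 FPKM in WT, 31.4 FPKM in hsromega66, 20.1 FPKM in Hsp90GFP and 23.3 FPKM in the labelled recombinant. WT and hsromega66 were the higher pair, and the 2 genotypes labelled with Hsp90GFP the lower pair. The ratio of the labelled recombinant to WT was 0.810 (95% interval 0.204 to 3.22, q = 0.983, authors' deposited table), and that of Hsp90GFP to WT was 0.699 (interval 0.157 to 3.11, q = 0.939, authors' deposited table). The interval of 0.204 to 3.22 places Mmp1 neither above nor below WT in the labelled recombinant, and any link to l(2)gl was not tested.

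The merged row of Ilp8 and CR45756 was lowest in Hsp90GFP and highest in the labelled recombinant, with no call. It was at 1.40 FPKM in WT, 2.19 FPKM in hsromega66, 0.372 FPKM in Hsp90GFP and 9.18 FPKM in the labelled recombinant. It stood above 50.9% of the genes tested in all comparisons in that group, 10.9% in WT and 0.321% in Hsp90GFP. The ratio to WT was 6.58 (95% interval 0.715 to 60.6, q = 0.596), to hsromega66 4.20 (interval 0.512 to 34.4, q = 0.671) and to Hsp90GFP 24.7 (interval 0.618 to 985, q = 0.489), with q from the authors' deposited tables. The intervals were far wider than those of the other members, with standard errors of 1.55 to 3.03 on the log2 scale. Ilp8 (FBgn0036690, 3L 17029812 to 17032080, minus strand, 3 distinct exons in 1 transcript) shares 26 bases with CR45756 (3L 17032055 to 17032608), on the same strand, so the value cannot be divided between them. Lgr3, the receptor of Ilp8, was at 0.0907 FPKM in WT, 0.342 FPKM in hsromega66, 0.249 FPKM in Hsp90GFP and 0.0294 FPKM in the labelled recombinant, and the authors' deposited tables list it as not tested in all 6 comparisons.

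**Figure D3:**
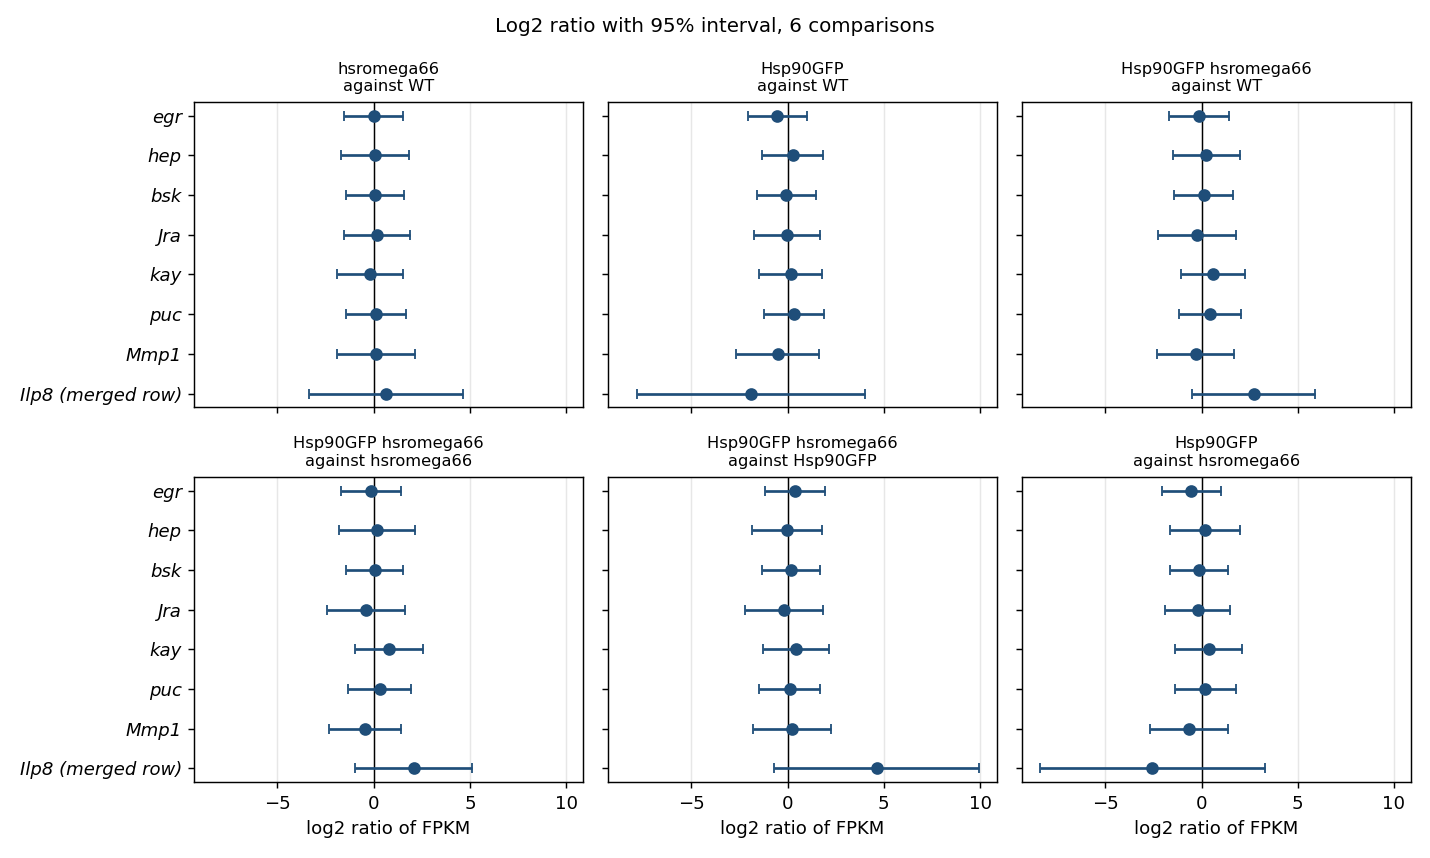
Log2 ratio of group FPKM (horizontal axis) for the 8 member rows in the 6 comparisons, 1 panel each; bars are 95% normal intervals from the error implied by the deposited statistic. All bars cross 0, those of the own-row genes lie between about the same limits in every panel, and the row of Ilp8 has the widest bars and stands at 2.72, 2.07 and 4.63 in the panels of the labelled recombinant.

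The labelled recombinant was also set against Hsp90GFP beside hsromega66 against WT. This is no test of whether the 2 labelled changes add up, since Hsromega in the labelled recombinant stood far above its level in hsromega66, l(2)gl was nearly lost there, and WT has another background. The difference taken was the log2 ratio of the labelled recombinant to Hsp90GFP minus the log2 ratio of hsromega66 to WT. It was 0.63 for kay (95% interval -1.78 to 3.03), 0.40 for egr (-1.78 to 2.59), -0.35 for Jra (-3.00 to 2.30) and between -0.10 and 0.12 for hep, bsk, puc and Mmp1. For the row of Ilp8 it was 3.98 (interval -2.69 to 10.6). None of the members passed a z test with Benjamini-Hochberg adjustment over 11893 genes, of which 56 passed. The adjusted p was 1.00 for each member, and the smallest unadjusted p was 0.242, for the row of Ilp8.

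Some members overlap other genes. The library kit marks strand, but no source used here gives whether the authors counted by strand. The shared bases below are overlaps of whole gene spans, introns included, and whether they lie in exons was not examined. How far such pairs share reads is therefore unknown. Mmp1 shares 284 bases with Pof on the opposite strand, Jra 39 bases with RpLP0-like, and kay 1180 bases with fig. puc shares 1305 bases with the non-coding gene CR44331, and the span of egr holds small RNA genes. Pof had 7.53 FPKM in the labelled recombinant against 26.2 FPKM in WT, and RpLP0-like 38.8 against 22.6 FPKM. Neither Pof nor RpLP0-like was called in any comparison.

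By the rule for likeness, which asks for a ratio of highest to lowest genotype of at least 2, the row of Ilp8 alone was matched to other genes. Over the 4 genotypes and 15039 single-symbol rows, the rows nearest in centred log2(FPKM + 1) were CG10943, CG1124 and CG1461, at distances of 0.08, 0.23 and 0.24. CG10943 was at 10.4 FPKM in WT, 14.3 FPKM in hsromega66, 5.47 FPKM in Hsp90GFP and 44.6 FPKM in the labelled recombinant, the same order of genotypes as the row of Ilp8. With 4 points per gene, and rows picked by their closeness on those same points, such likeness is a description only. The added 1 FPKM also narrows the ratios of a low row such as that of Ilp8.

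Around the members, the other genes of the pathway were counted in 7 lists of 58 genes, 55 of them with their own row and 52 or 53 tested. In hsromega66 against WT none of 52 was called (Cuffdiff), none had an unadjusted p under 0.05, and by the implied standard errors none was called either, beside 1.24% of all tested genes called by Cuffdiff. In Hsp90GFP 1 of 52 was called against WT, beside 1.09% of all genes, and 1 of 52 against hsromega66, beside 0.997%: both times ple, which fell. In the labelled recombinant 1 rose and 3 fell of 53 against WT, where 4.61% of all tested genes rose and 4.05% fell. Against hsromega66 2 rose and 3 fell, beside 3.68% and 3.63% of all genes, and against Hsp90GFP 1 rose and 1 fell, beside 3.51% and 3.14%. The median log2 ratio of the lists against WT was -0.21 there, beside -0.06 over all tested genes.

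**Figure D4:**
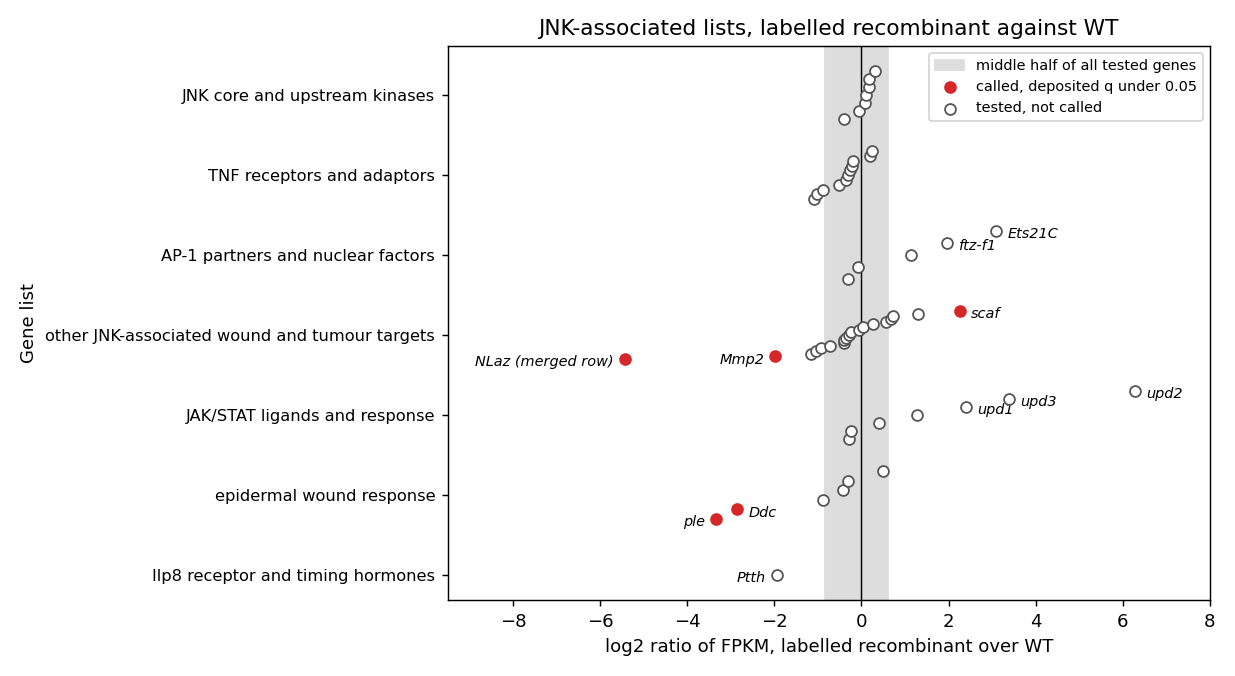
Log2 ratio of group FPKM in the labelled recombinant over WT (horizontal axis) for each tested gene of the 7 pathway lists (vertical axis), merged rows included; filled points were called and open points were not, and the grey band holds the middle 50% of all tested genes. The kinases lie inside the band, scaf was called on the higher side, and Mmp2, ple, Ddc and the merged row of NLaz on the lower side.

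Beside and upstream of hep, none of the 6 other kinase genes with a row of their own was called in any comparison (Cuffdiff), and none had an unadjusted p under 0.05. Tak1, the kinase that activates hep, was at 19.6 FPKM in WT, 18.0 FPKM in hsromega66, 19.4 FPKM in Hsp90GFP and 22.2 FPKM in the labelled recombinant. Mkk4, the second JNK kinase, was at 23.2, 23.3, 26.3 and 26.2 FPKM in the same order. Over the 6 genes the ratio of highest to lowest genotype was 1.08 to 1.41.

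None of the 11 receptor and adaptor genes was called either (Cuffdiff, none with an unadjusted p under 0.05), and 8 of them had their lowest level in the labelled recombinant. grnd, an Eiger receptor listed under CG10176, was at 23.1 FPKM in WT, 23.3 FPKM in hsromega66, 17.4 FPKM in Hsp90GFP and 10.9 FPKM in the labelled recombinant. The ratio of the last to WT was 0.471 (95% interval 0.104 to 2.13, q = 0.629, authors' deposited table). wgn, the other Eiger receptor, was at 8.57, 6.84, 7.69 and 7.34 FPKM. Across 11657 genes the labelled recombinant was lowest in 42.1% and highest in 37.7%, so such extremes are common.

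In the list of AP-1 partners and other nuclear factors, 1 of 5 genes was called. ftz-f1, a nuclear receptor of the prepupal ecdysone response, was at 2.58 FPKM in WT, 2.55 FPKM in hsromega66, 4.15 FPKM in Hsp90GFP and 10.04 FPKM in the labelled recombinant. It rose 3.93-fold there against hsromega66 (95% interval 1.16 to 13.4, q = 0.0464) and missed the threshold against WT (q = 0.0520) and Hsp90GFP (q = 0.301, authors' deposited tables). The call against hsromega66 was lost at q under 0.01, with Benjamini-Hochberg adjustment within that table and with the implied standard errors, centred or not. The AP-1 partner Atf3 and the ETS factor gene Ets21C, JNK-responsive in disc tumours, were not called. Atf3 was at 17.0 FPKM in the labelled recombinant against 7.72 FPKM in WT (q = 0.317), and Ets21C at 3.66 against 0.427 FPKM (q = 0.368, authors' deposited table). Both genes had their highest level in that group, while Atf-2 had its lowest there, 5.69 against 7.04 FPKM in WT, and aop had 9.58 against 10.2 FPKM, neither called.

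Of 17 other wound and tumour targets, 1 rose and 1 fell in the labelled recombinant against WT. scaf, which encodes a secreted serine protease homologue made under JNK control during closure of the embryonic epidermis, was at 8.54 FPKM in WT, 13.9 FPKM in hsromega66, 11.6 FPKM in Hsp90GFP and 40.8 FPKM in the labelled recombinant. It rose 4.77-fold against WT (95% interval 1.68 to 13.5, q = 0.00565), 3.52-fold against Hsp90GFP (interval 1.21 to 10.2, q = 0.0185) and 2.94-fold against hsromega66 (interval 1.05 to 8.24, q = 0.0497, authors' deposited tables). With the implied standard errors scaf passed in none of these comparisons, and after median centring it passed against WT alone. Its calls against hsromega66 and Hsp90GFP were also lost at q under 0.01. The call against hsromega66 was lost too with Benjamini-Hochberg adjustment within that table and with a filter of at least 1 FPKM in either genotype.

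Mmp2, the other fly matrix metalloproteinase, went the other way: it was at 12.3 FPKM in WT, 12.7 FPKM in hsromega66, 9.36 FPKM in Hsp90GFP and 3.10 FPKM in the labelled recombinant. It fell 3.95-fold against WT (q = 0.0248) and 4.10-fold against hsromega66 (q = 0.0158), and was not called against Hsp90GFP (q = 0.107, authors' deposited tables). Neither call was made with the implied standard errors. Timp, the secreted inhibitor of both metalloproteinases, was at 13.0 FPKM in WT, 10.3 FPKM in hsromega66, 14.7 FPKM in Hsp90GFP and 32.0 FPKM in the labelled recombinant, not called (q = 0.299 against WT, authors' deposited table). Of the 3 genes of this matrix system, Mmp1 thus stood at 0.810, Mmp2 at 0.253 and Timp at 2.46 times WT in that group, with a call for Mmp2 alone. The row that merges NLaz, a secreted lipocalin induced by JNK in metabolic stress, with CG31659 was at 49.4 FPKM in WT, 48.6 FPKM in hsromega66, 13.5 FPKM in Hsp90GFP and 1.14 FPKM in the labelled recombinant. That row fell 43.3-fold against WT (95% interval of the ratio 0.00465 to 0.115, q = 0.00144), 42.6-fold against hsromega66 (q = 0.00144) and 11.9-fold against Hsp90GFP (q = 0.00740), and it was 3.59-fold lower in Hsp90GFP than in hsromega66 (q = 0.0393, authors' deposited tables). It was not called in Hsp90GFP against WT (q = 0.0664, authors' deposited table). With the implied standard errors the row was called against WT and hsromega66 alone. Its value cannot be divided between the genes.

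The cytokines of the JAK/STAT pathway, which JNK induces in wounded and tumorous discs, stood highest in the labelled recombinant, with none of 7 list genes called (Cuffdiff). upd1, listed under os, was at 0.520 FPKM in WT, 0.557 FPKM in hsromega66, 0.622 FPKM in Hsp90GFP and 2.76 FPKM there (ratio to WT 5.30, 95% interval 1.26 to 22.3, q = 0.0529, authors' deposited table). upd3 was at 0.135, 0.459, 0.525 and 1.42 FPKM, and upd2 at 0.0218, 0.218, 0.345 and 1.71 FPKM in the same order, all low levels. Socs36E, a feedback inhibitor and target of STAT, had 19.0 FPKM in that group against 7.79 FPKM in WT (q = 0.164, authors' deposited table). The rest of the list did not all go that way: 5 of the 7 genes were highest in that group and 2 lowest. dome was among the highest (10.5 against 8.01 FPKM in WT), while hop (7.64 against 9.07) and Stat92E (75.5 against 92.0) were lowest there. Of the 7, 3 had an unadjusted p under 0.05 against WT in the labelled recombinant (upd1, upd3 and Socs36E), beside 2278 of all 12656 tested genes.

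In the epidermal wound list, ple and Ddc fell. ple, tyrosine hydroxylase, and Ddc, dopa decarboxylase, act in succession in making dopamine, are induced around larval and embryonic wounds, and also serve cuticle tanning. ple was at 114.8 FPKM in WT, 201 FPKM in hsromega66, 8.07 FPKM in Hsp90GFP and 11.3 FPKM in the labelled recombinant. It fell 14.2-fold in Hsp90GFP (q = 0.00264) and 10.2-fold in the labelled recombinant (q = 0.00372) against WT, and 24.96-fold and 17.8-fold against hsromega66 (q = 0.00144 for both, authors' deposited tables). The 2 genotypes labelled with Hsp90GFP were thus the low pair. Ddc was at 153 FPKM in WT, 240 FPKM in hsromega66, 112 FPKM in Hsp90GFP and 21.2 FPKM in the labelled recombinant, where it fell 7.22-fold against WT (q = 0.0191), 11.3-fold against hsromega66 (q = 0.00144) and 5.28-fold against Hsp90GFP (q = 0.0254, authors' deposited tables). The other 4 genes of that list were not called in any comparison (Cuffdiff), and none had an unadjusted p under 0.05. With the implied standard errors ple kept its calls, and Ddc was called against hsromega66 alone.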

How the data were processed

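Total RNA depleted of ribosomal RNA was sequenced from 8 libraries made with a strand-marking kit, per the labels' protocols, and deposited by the authors as 6 pairwise tables, each with 1 FPKM per genotype over both libraries. Reads were processed with TopHat, Bowtie, Cufflinks and Cuffdiff 2.1.1 on dm6, per the submitters' processing notes; no source used here gives the other versions. FPKM, the log2 ratio, the test statistic (a score), the p-value and the q-value were used as deposited, per the file headers. The values of single libraries were not used here, so p-values measure what Cuffdiff modelled between 2 libraries, and the labels call these replicates without saying how their larvae were reared.

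From these, a standard error was taken as the log2 ratio divided by the deposited statistic and a 95% normal interval drawn from it. Standard errors implied by the p-value were an alternative. Equal deposited p-values carry equal q-values, apart from rounding, in all 6 tables, so another alternative applied Benjamini-Hochberg within each table. Gene positions came from Ensembl release 115, whose coordinates are those of dm6. Scripts ran in Python 3.11.15 with pandas 2.3.3 and numpy 2.4.6; scipy 1.17.1 gave the z tests and matplotlib 3.10.9 the plots.

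The members and lists were chosen with earlier results of these data known. Named genes were all 8 members, grnd, wgn, Tak1, Mkk4, Timp and Lgr3, every list gene called in at least 1 comparison, and for likeness the 3 nearest rows of any member with a highest genotype of at least 1 FPKM and a highest-to-lowest ratio of at least 2. Atf3, Ets21C, Atf-2, aop, upd1, upd2, upd3, Socs36E and NLaz, and the genes that overlap members, were named after their values were seen.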

Additional observations from a re-analysis of the deposited data

How the results depend on the processing

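The count of members called was 0 in all 6 comparisons under each alternative: q under 0.01, Benjamini-Hochberg within the table, a filter of at least 1 FPKM in either genotype, and implied standard errors with and without median centring. No member passed the z test of the difference between the ratios of the labelled recombinant to Hsp90GFP and of hsromega66 to WT with median-centred ratios, with the other pairing of the contrast or with errors implied by the deposited p. Of the 48 member log2 ratios, 0 changed sign with a pseudocount of 1 or 0.1, 3 when median-centred and 15 when rescaled to summed FPKM, which shifts the log2 ratios of the labelled recombinant by 0.36 against WT and 0.43 against Hsp90GFP; 0 moved by more than their standard error. The other counts of pathway genes, chosen as results after the data were seen, moved more, all in the labelled recombinant. Against WT, those called higher went from 1 to 3 with adjustment within the table and with the FPKM filter (ftz-f1, scaf and upd1), and to 0 with implied standard errors; those called lower went from 3 to 1 (ple) at q under 0.01 and with implied standard errors, centred or not. Against hsromega66, those called higher went from 2 to 1 (ftz-f1) with the filter and to 0 in the other 4 alternatives. Against Hsp90GFP, 1 higher and 1 lower both went to 0 at q under 0.01 and with implied standard errors, centred or not. The cause was not tested. Over all genes, the calls against WT went from 155 to between 31 and 75 in hsromega66, from 137 to between 51 and 73 in Hsp90GFP and from 1096 to between 676 and 1134 in the labelled recombinant. That group had 912 calls against hsromega66 (423 to 879 in the alternatives) and 839 against Hsp90GFP (412 to 782), and Hsp90GFP had 125 against hsromega66 (46 to 79). No paired analysis was possible because the tables used hold 1 value per genotype and none per library, and leaving out each replicate was not run for the same reason. Read depth is unknown, so no counting error could be given.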
